A study of Homo sapiens with 6 samples.

Results

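Poly(ADP-ribose) polymerases (PARPs) transfer ADP-ribose from NAD to proteins and nucleic acids. PARP1 and PARP2 are recruited to DNA breaks, build chains of ADP-ribose there and are the targets of olaparib and related inhibitors, and PARG removes the chains again. The tankyrases TNKS and TNKS2 modify substrates at telomeres and in Wnt signalling, most other family members attach a single ADP-ribose, and SLFN11, a Schlafen protein that acts at stalled replication forks, is known for its association with the response to DNA-damaging drugs.

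The RNA of 10 of these genes was followed in A2780 cells, a human ovarian carcinoma line, with and without CDK12, a kinase of the transcribing RNA polymerase II. The genes were picked out by symbol from a table of 60483 genes, with no threshold on their values, though with earlier results of these data known. They were PARP1, PARP2, PARP3, PARP4, PARP9, PARP14, PARG, TNKS, TNKS2 and SLFN11. All 10 were found in the table, and 9 of them had enough reads to be tested. SLFN11 did not.

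The study sequenced RNA of A2780 WT cells in 3 libraries and of A2780 CDK12 KO cells in 3 libraries, to compare gene expression with and without the kinase. The KO cells came from transfection with a CRISPR/Cas9 plasmid against exon 1 of CDK12. They are a single clone, which also carries a duplicated chromosome set, so effects of the knockout, of the clone and of its chromosomes cannot be told apart. All values are relative to the total of a library: fewer cells of a type and less RNA per cell cannot be told apart in such data, and RNA per cell was not measured. The labels do not say whether the libraries of a group came from separate cultures, so the p-values measure the spread between these libraries, which may be technical.

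The libraries held between 11098400 counts, in WT replicate 3, and 30899045 counts, in WT replicate 2. Levels are given as CPM, the counts of a gene relative to the TMM-scaled total of its library, errors of log2 fold changes are standard errors, and a gene was called changed at an adjusted p under 0.05 in edgeR's quasi-likelihood test. CDK12 itself had 2831, 3759 and 1294 counts in WT and 2432, 2504 and 1818 in KO, and its log2 fold change was -0.23 ± 0.058 (SE, n = 3 and 3, edgeR adjusted p = 0.00082). Counts over the whole gene do not show a small edit in its first exon, so this value does not check the labels. Among 8 markers of epithelial ovarian carcinoma, KRT8, KRT18 and EPCAM had more than 3 counts in every library. KRT19 had 3, 11 and 2 counts in WT and 6, 3 and 8 in KO, MUC16 had at most 1 and CDH1, PAX8 and WT1 had at most 6. KRT8 and KRT18 were higher in KO (log2 fold change 0.565 and 0.785), and EPCAM was lower (-0.535). Of 5 leukocyte markers none had more than 3 counts in every library, their summed level was 0.270 to 0.620 CPM in WT and 0.0562 to 0.203 CPM in KO, and PTPRC had at most 2 counts. The summed level of 3 endothelial markers was 0.0730 to 0.3 CPM in WT and 0.674 to 0.892 CPM in KO. Most of it was VWF, with 2, 7 and 3 counts in WT and 18, 22 and 10 in KO. That of 4 fibroblast-associated genes, led by COL1A2, was 5146 to 5278 CPM in WT and 2679 to 2813 CPM in KO, where DCN had 0 counts. The part of these differences in the results below was not tested.

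Of the 9 tested genes, PARP3, PARP4, PARP9, TNKS and TNKS2 were higher in KO, PARP2 and PARP14 were lower, and PARP1 and PARG did not pass the test. The changes were small: the log2 fold changes ran from -0.38 for PARP2 to 0.52 for PARP3. Over all 16198 genes tested, 31.9% were higher and 32.0% were lower in KO by the same test, so calls in both directions were common everywhere in this comparison. The median log2 fold change was 0.29 over the 9 genes and 0.00 over all genes tested. None of the 9 passed the test with a log2 fold change above 1 or below -1, where 8.30% of all genes were higher and 7.73% were lower. That count was 0 in edgeR, in voom/limma and in DESeq2, and it was also 0 in each of them at an unadjusted p under 0.05. The choice of p could not alter it, because the log2 fold changes stayed between -0.42 and 0.56 under all alternatives tried. The values of WT and KO did not overlap for 7 of the 9 genes, the same 7 that passed the test, beside 66.4% of all genes.

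**Figure D1:**
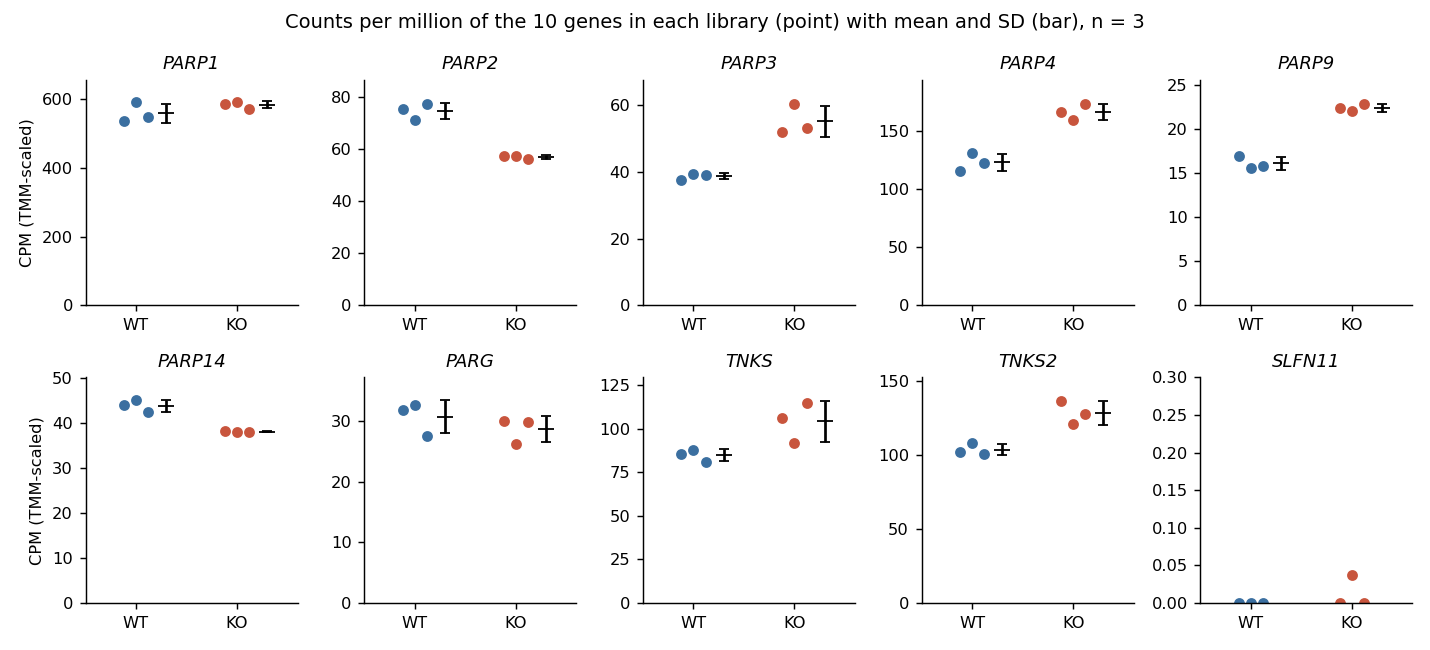
Level of each of the 10 genes in CPM (TMM-scaled, linear axes from 0, a separate scale per gene) in the 3 WT and 3 KO libraries, with points for libraries and black bars for the mean and SD, which are left out for SLFN11. WT and KO points overlap for PARP1 and PARG, lie apart for PARP2, PARP3, PARP4, PARP9, PARP14, TNKS and TNKS2, and SLFN11 has a value above 0 in 1 library, at 0.0371 CPM.

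PARP1 (chromosome 1, 226360210 to 226408154, minus strand, GRCh38), the enzyme that makes most of the ADP-ribose chains after DNA damage, had 6099 to 17693 counts per library. Its level was 536, 591 and 549 CPM in WT and 587, 592 and 572 CPM in KO. WT replicate 2 was as high as the KO libraries, and the groups overlapped. The log2 fold change was 0.06 ± 0.048 (SE, edgeR adjusted p = 0.249), with a 95% confidence interval from -0.03 to 0.16, that is from 0.977-fold to 1.12-fold. With library totals alone as the scaling, the value was 0.11 with an adjusted p of 0.0399 in edgeR, so the side of the threshold on which PARP1 fell depended on the scaling. The study itself reported PARP1 as lower in the KO cells, by RT-PCR of its RNA and by western blot of its protein. The counts did not show this fall, and the reason for the difference was not tested.

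PARP2 (chromosome 14, 20343615 to 20357904, plus strand), which shares its catalytic function and its inhibitors with PARP1, moved down. It stood at 75.6, 71.2 and 77.3 CPM in WT and at 57.3, 57.5 and 56.4 CPM in KO, from 858 to 2132 counts. Every KO library was below every WT library, and the KO libraries differed little among themselves, with a coefficient of variation of 0.979%. The level fell to 0.767-fold (95% confidence interval 0.712 to 0.826, log2 fold change -0.38 ± 0.053, edgeR adjusted p = 1.65e-07). The value stayed between -0.42 and -0.34 on the log2 scale, past the threshold, under all 13 alternatives tried.

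PARP3 (chromosome 3, 51942345 to 51948867, plus strand), which attaches a single ADP-ribose and takes part in the repair of double-strand breaks, had the largest change of the 9 genes with all libraries, though its confidence interval overlapped those of PARP4 and PARP9. Without WT replicate 1 the log2 fold change of PARP9 (0.51) was above that of PARP3 (0.49), and without KO replicate 2 those of PARP9 (0.49) and PARP4 (0.47) were (PARP3 0.45). Its level was 37.6, 39.4 and 39.2 CPM in WT and 51.9, 60.4 and 53.3 CPM in KO, from 435 to 1625 counts. All KO libraries were higher, with more spread among them (coefficient of variation 8.19%) than in WT (2.56%). The level rose 1.43-fold (95% confidence interval 1.31 to 1.56, log2 fold change 0.52 ± 0.061, edgeR adjusted p = 8.4e-09).

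PARP4 (chromosome 13, 24420931 to 24512778, minus strand), the PARP of the vault particle, a large ribonucleoprotein of the cytoplasm, was also higher. It was measured at 116, 131 and 123 CPM in WT and at 167, 160 and 174 CPM in KO, from 1370 to 4305 counts. The groups lay apart by more than the range within either of them. The level rose 1.35-fold (95% confidence interval 1.26 to 1.45, log2 fold change 0.43 ± 0.052, edgeR adjusted p = 1.01e-08).

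Both tankyrases rose. TNKS (chromosome 8, 9555912 to 9782346, plus strand) had 85.8, 87.6 and 81.0 CPM in WT and 106, 91.7 and 115 CPM in KO, from 899 to 2626 counts. TNKS2 (chromosome 10, 91798426 to 91865475, plus strand) had 102, 108 and 101 CPM in WT and 137, 121 and 128 CPM in KO, from 1119 to 3361 counts. For both genes KO replicate 2 was the nearest to WT, and no library of KO reached into the WT range. TNKS rose 1.22-fold (95% confidence interval 1.12 to 1.33, log2 fold change 0.29 ± 0.061, edgeR adjusted p = 0.000107). TNKS2 rose 1.24-fold (95% confidence interval 1.15 to 1.33, log2 fold change 0.31 ± 0.052, edgeR adjusted p = 6.06e-06). Without single libraries the value for TNKS lay between 0.22 and 0.38 and that for TNKS2 between 0.26 and 0.35, all past the threshold.

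PARG (chromosome 10, 49818279 to 49970203, minus strand), the hydrolase that takes the chains apart, stood at 31.9, 32.7 and 27.6 CPM in WT and at 30.0, 26.3 and 29.9 CPM in KO, from 307 to 979 counts. The lowest WT library was below 2 of the KO libraries. The log2 fold change was -0.12 ± 0.070 (SE, edgeR adjusted p = 0.130), with a 95% confidence interval from -0.26 to 0.02. Without WT replicate 3, the library of lowest depth, it was -0.18 with an edgeR adjusted p of 0.0406. PARGP1, an annotated copy of PARG, had 36 to 108 counts per library, 10.5% of the PARG total, and a log2 fold change of 0.11 (edgeR adjusted p = 0.579). Reads that match both copies may have been left out or split, so PARG is uncertain to that extent.

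PARP9 and PARP14 lie near each other on chromosome 3 and are known as genes induced by interferon. PARP9 forms a complex with the ubiquitin ligase DTX3L, whose gene starts next to it on the opposite strand. PARP14 attaches single ADP-ribose units and carries macrodomains that bind or remove them. RefSeq places a start of PARP9 at 122564300 on the minus strand and that of DTX3L at 122564338 on the plus strand. Between these 2 starts lie 37 bases, and RefSeq also gives PARP9 a further start. The start of PARP14 lies further along the chromosome, at the first base after the run printed here. Promoter windows of 300 bases (250 before and 50 after the start) were found in RefSeq (GRCh38.p14) for 8 of the 10 genes. They were searched on both strands for the core of an interferon-stimulated response element, GAAANNGAAA, and for the site bound by STAT dimers, TTCNNNGAA. The first was in 3.57% of 35116 windows, and among the 8 genes in PARP9 and PARP14. The second was in 7.66% of the windows, and among the 8 genes in PARP2, PARP14 and SLFN11. The PARP9 window of the further start, at 122564735 to 122565034, held neither motif. The motif found for PARP9 thus belongs to the start at 122564300 only. The search shows letters only and tells nothing of binding. The sequences at the starts of PARP9 and DTX3L (chr3:122564322-122564351, plus strand) and before the start of PARP14 (chr3:122680719-122680838, plus strand) are shown because the 2 genes share the first motif, in capitals, and moved apart. The further capitals in PARP14, before the single bases "ac", mark the second motif.
PARP9/DTX3L: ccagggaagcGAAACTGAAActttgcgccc
PARP14: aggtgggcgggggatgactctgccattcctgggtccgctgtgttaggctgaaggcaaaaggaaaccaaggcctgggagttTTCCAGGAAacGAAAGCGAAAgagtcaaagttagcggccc

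PARP9 (122527924 to 122564577, minus strand) had 16.9, 15.6 and 15.8 CPM in WT and 22.4, 22.0 and 22.9 CPM in KO, from 175 to 593 counts. PARP14 (122680839 to 122730840, plus strand) had 44.1, 45.2 and 42.5 CPM in WT and 38.4, 38.0 and 38.1 CPM in KO, from 472 to 1354 counts. The KO libraries were all above WT for PARP9 and all below WT for PARP14. PARP9 rose 1.39-fold (95% confidence interval 1.25 to 1.54, log2 fold change 0.47 ± 0.073, edgeR adjusted p = 1.25e-06). PARP14 fell to 0.865-fold (95% confidence interval 0.798 to 0.938, log2 fold change -0.21 ± 0.057, edgeR adjusted p = 0.00204), the smallest change among the 7 genes called. DTX3L, the partner of PARP9, had 679, 808 and 241 counts in WT and 1215, 1231 and 934 in KO, and rose too (log2 fold change 0.98 ± 0.069, edgeR adjusted p = 5.71e-14). Its 95% confidence interval, from 0.84 to 1.12, lay above that of PARP9, from 0.32 to 0.62.

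Ratios within a library do not depend on how libraries are scaled, and 6 pairs of genes were compared in this way by an exact permutation test, two-sided, in which 3 libraries against 3 cannot give a p below 0.1. The count ratio of PARP14 to PARP9 was 2.61, 2.90 and 2.70 in WT and 1.71, 1.73 and 1.67 in KO, a change to 0.623-fold with no overlap (exact permutation p = 0.1, adjusted p over the 6 pairs = 0.15). That of DTX3L to PARP9 was 1.46, 1.73 and 1.38 in WT and 2.21, 2.08 and 2.29 in KO, a change of 1.45-fold with no overlap (exact permutation p = 0.1, adjusted p = 0.15). All KO libraries thus held less PARP14 and more DTX3L for each PARP9 read than any WT library. For PARP2 to PARP1 the ratio was 0.141, 0.120 and 0.141 in WT and 0.0975, 0.0971 and 0.0986 in KO (0.731-fold, exact permutation p = 0.1, adjusted p = 0.15). For PARP3 to PARP1 it changed 1.36-fold, from 0.0693 ± 0.0024 to 0.0945 ± 0.0069 (SD, n = 3 each, exact permutation p = 0.1, adjusted p = 0.15). The ratio of PARG to PARP1 overlapped between groups, at 0.0551 ± 0.0046 in WT and 0.0493 ± 0.0042 in KO (SD, n = 3 each, exact permutation p = 0.3, adjusted p = 0.36). The ratio of TNKS2 to TNKS was 1.22 ± 0.031 in WT and 1.24 ± 0.11 in KO (SD, n = 3 each, exact permutation p = 1.0, adjusted p = 1.0), and its difference of 0.014 on the log2 scale changed sign when single libraries were left out.

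**Figure D2:**
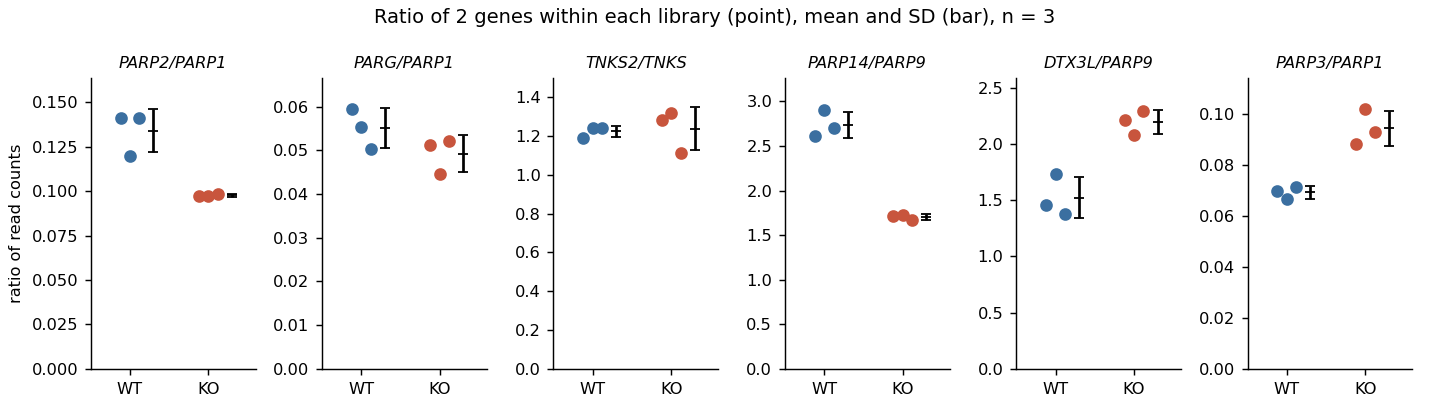
Ratio of the read counts of 2 genes in each of the 3 WT and 3 KO libraries (points, linear axes from 0), with the mean and SD as black bars. PARP2/PARP1 and PARP14/PARP9 are lower in every KO library, DTX3L/PARP9 and PARP3/PARP1 are higher in every KO library, and PARG/PARP1 and TNKS2/TNKS overlap.

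**Figure D3:**
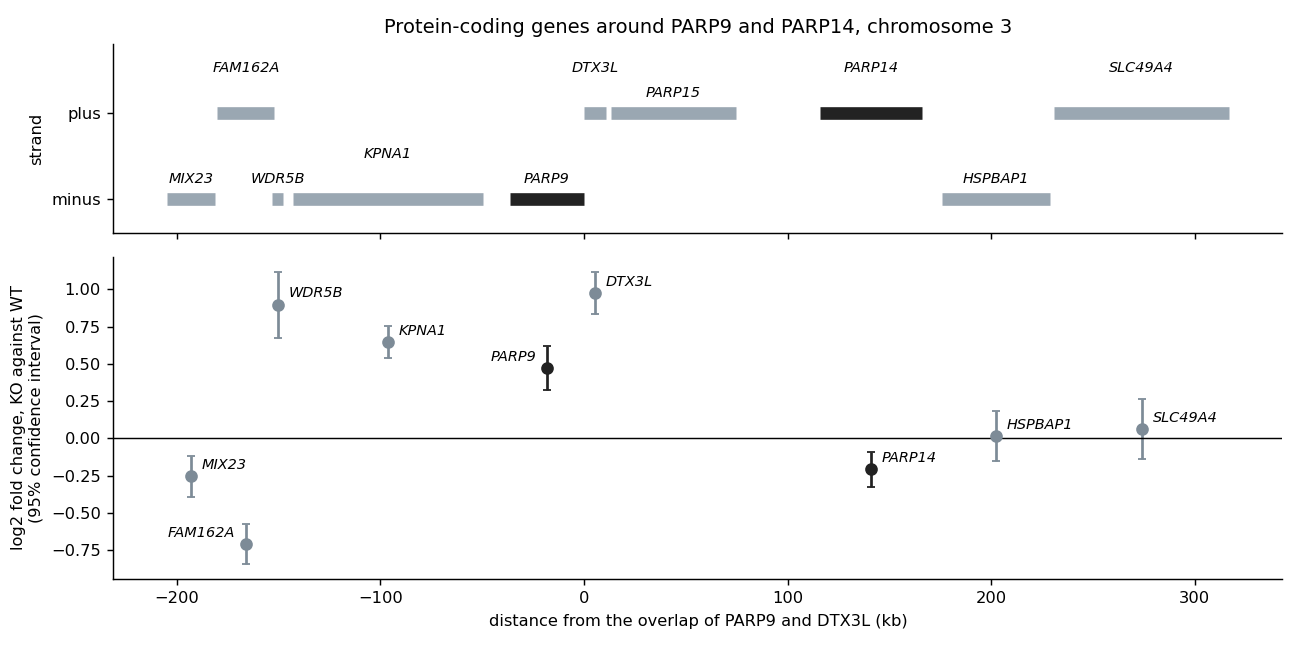
Protein-coding genes around PARP9 and PARP14 on chromosome 3 by strand (upper panel) and their log2 fold change in KO against WT with the 95% confidence interval (lower panel, edgeR, n = 3 each), plotted by distance in kb from the overlap of PARP9 and DTX3L. WDR5B, KPNA1, PARP9 and DTX3L lie above 0, and MIX23, FAM162A and PARP14 lie below 0. The intervals of HSPBAP1 and SLC49A4 cross 0, and PARP15 had too few counts for a test.

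The coding genes around them moved in both directions. KPNA1, the nearest tested gene on the far side of PARP9, was higher (log2 fold change 0.65 ± 0.052, edgeR adjusted p = 1.44e-12). WDR5B, the next coding gene, was higher too (0.90 ± 0.11, edgeR adjusted p = 1.18e-08). WDR5B, KPNA1, PARP9 and DTX3L, which follow each other in this order, were thus all higher. Beyond WDR5B, FAM162A (-0.71 ± 0.065) and MIX23 (-0.25 ± 0.067) were lower. PARP15, which lies between DTX3L and PARP14, had at most 1 count in each library. HSPBAP1, just beyond PARP14, had a log2 fold change of 0.02 ± 0.083 (edgeR adjusted p = 0.872). In the GENCODE annotation PARP9 and DTX3L overlap by 240 bases on opposite strands. The library kit keeps the strand, but the strand setting of the counting is not given in the sources used here, so reads within overlaps may have been assigned to either gene or to none.

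Neighbours of the other genes are given by their log2 fold changes. The counts of calls below stand beside shares of 31.9% higher and 32.0% lower over all genes tested. Within 1 Mb of PARP2, 4 of 17 other tested genes were higher and 4 were lower, with a median log2 fold change of 0.04, while PARP2 fell. CCNB1IP1 on one side of it had a log2 fold change of -0.20 ± 0.056 and TEP1 on the other side one of 0.33 ± 0.056. Within 1 Mb of PARP3, 27 of 44 tested genes were higher and 4 were lower, with a median of 0.20; RRP9 beside it had 0.17 ± 0.054 and the unnamed gene ENSG00000280422 had 0.85 ± 0.28. Around PARP1 11 of 18 genes were higher and 3 were lower, with a median of 0.20, LIN9 had 0.09 ± 0.057 and STUM had 2.75 ± 0.53. Around TNKS the median over 12 genes was -0.24, opposite in sign to TNKS itself; PPP1R3B-DT on one side had -3.01 ± 0.29 and MSRA on the other had 1.57 ± 0.078. Around TNKS2 the median over 15 genes was -0.05, with 0.56 ± 0.063 for HECTD2 and -0.05 ± 0.16 for SRP9P1, a pseudogene within TNKS2. Around PARG the median over 14 genes was 0.16, with 0.57 ± 0.072 for OGDHL and -0.01 ± 0.11 for TIMM23B, which overlaps PARG by 28155 bases on the opposite strand. PARP4 lies wholly within TPTE2P6, a transcribed pseudogene of the opposite strand with 4 to 7 counts in WT and 17 to 31 in KO (log2 fold change 2.27 ± 0.35), and the unnamed gene ENSG00000243008 on its other side had 2.91 ± 0.35. These counts are far below those of PARP4. Of the other annotated pseudogenes, PARP1P1 had 9 to 20 counts per library, 0.105% of the PARP1 total, and PARP1P2 and PARP4P2 had at most 3.

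SLFN11 (chromosome 17, 35350305 to 35373701, minus strand) was not detectable at this depth. It had 0 counts in all 3 WT libraries and 0, 1 and 0 counts in the KO libraries. For the total of 0 in WT, a floor of 3 counts over the 3 libraries equals 0.0429 CPM. A total of 1 in KO has an exact 95% Poisson interval from 0.000371 to 0.0815 CPM. The first is a fixed floor and the second a two-sided interval, so they are not to be compared with each other. These limits cover counting error only. SLFN11 was therefore not compared between WT and KO. Of 5 further Schlafen genes, SLFN12, SLFN12L, SLFN13 and SLFN14 had 0 counts in WT and at most 2 in each KO library. SLFN5, another member of the family and the nearest tested gene on one side of SLFN11, had 174, 194 and 75 counts in WT and 239, 234 and 208 in KO, and rose (log2 fold change 0.61 ± 0.11, edgeR adjusted p = 1.7e-05). SNHG30, the nearest on the other side, fell (log2 fold change -0.46 ± 0.086, edgeR adjusted p = 2.53e-05). Of 18 tested genes within 1 Mb of SLFN11, 11 were higher and 2 were lower, a count that takes in only genes with enough reads. Shares among all genes tested were 31.9% higher and 32.0% lower. SLFN5 lay 76.7 kb and SNHG30 194 kb from SLFN11. The nearly uncounted genes SLFN12, SLFN13, SLFN12L and SLFN14 lie between SLFN11 and SNHG30.

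The bases before the outermost annotated start of SLFN11 (chr17:35373702-35373871, minus strand, RefSeq, GRCh38.p14) are shown because this is the only gene of the 10 that was not detectable at this depth. Its promoter window held 58.0% G and C bases and 18 CpG sites, beside medians of 58.7% and 14 over all windows, and PARP1 held 70.0% and 33. The capitals mark the STAT-type motif TTCNNNGAA, which 7.66% of all windows held.
SLFN11: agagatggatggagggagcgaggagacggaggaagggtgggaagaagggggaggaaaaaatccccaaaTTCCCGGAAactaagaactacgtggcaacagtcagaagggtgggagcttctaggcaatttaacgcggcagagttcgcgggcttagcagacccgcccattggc

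Compared per length of transcript, PARP1 had the highest level of the 10 genes and SLFN11 the lowest in both groups, whichever length was used. With all exonic bases of a gene as its length, PARP1 stood at 30.4 ± 1.6 CPM per kb in WT (SD, n = 3), PARP4 at 20.4 ± 1.3, PARP2 at 18.4 ± 0.78, TNKS2 at 16.6 ± 0.66 and PARP3 at 12.1 ± 0.31. TNKS at 6.09 ± 0.25 and PARG at 5.96 ± 0.53 overlapped, and PARP14 at 4.28 ± 0.13 and PARP9 at 1.8 ± 0.082 followed. In KO the order of PARP2 changed: it stood at 14.0 ± 0.14 CPM per kb, below TNKS2 at 20.6 ± 1.3 and PARP3 at 17.3 ± 1.4. The lengths matter here, because PARP1 has 18399 annotated exonic bases but a canonical transcript of 3978. With the canonical transcript as the length, an alternative chosen after the data were seen, PARP1 stood at 140 CPM per kb in WT and 147 in KO, PARP2 at 40.9 and 31.2 and PARP4 at 22.7 and 30.7, so that PARP2 came next after PARP1 in both groups and overlapped PARP4 in KO. With that length PARP9 and PARP14 overlapped in WT, at 5.28 and 5.71 CPM per kb, and PARP9 was the higher in KO, at 7.36 against 4.96. With all exonic bases (2.51 against 3.71) and with the longest transcript (3.31 against 4.52) PARP9 stayed below PARP14 in KO. With the longest transcript PARP2 also followed PARP1 in WT, at 37.7 CPM per kb, but in KO PARP4 did, at 30.7 against 28.8 for PARP2.

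**Figure D4:**
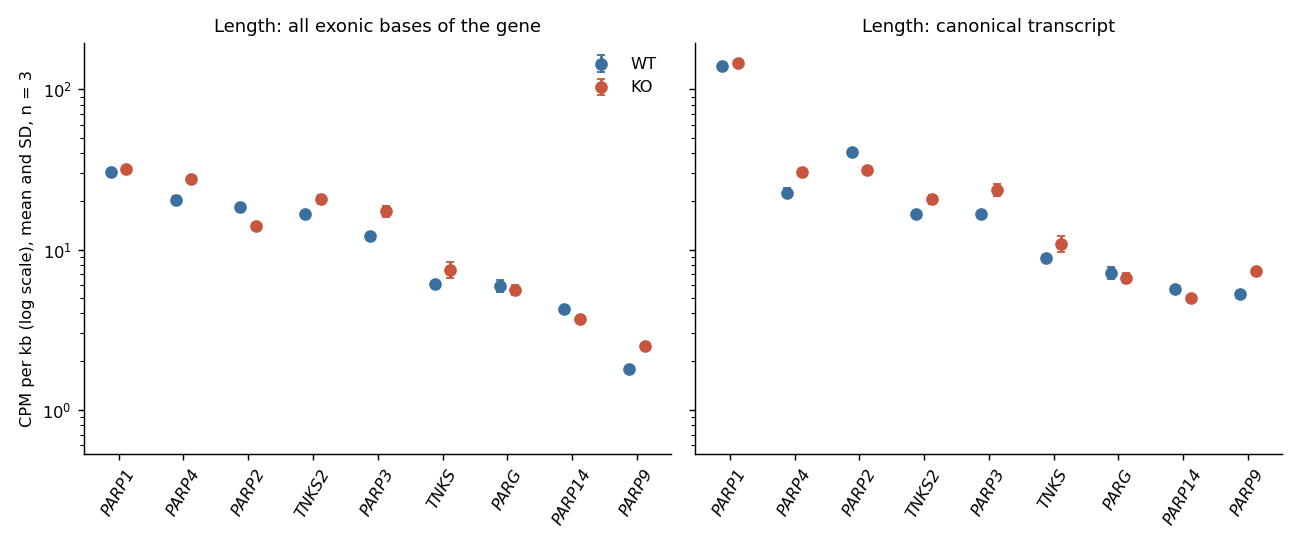
Level per length in CPM per kb (log scale) of the 9 detected genes in WT and KO (mean and SD, n = 3 each), with all exonic bases of the gene (left) or its canonical transcript (right) as the length. PARP1 is highest in both panels, and its distance to the other genes is larger with the canonical transcript.

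Among 9 further genes of the PARP family, 7 were tested, of which 5 were higher and 1 was lower in KO, and 2 passed the fold threshold. Of all genes tested, 31.9% were higher and 32.0% were lower, and 8.30% were higher past the fold threshold. The gene called lower, PARP16 (log2 fold change -0.23), lost its call with library totals only (edgeR adjusted p = 0.0519) and without KO replicate 2 (edgeR adjusted p = 0.117). PARP8, which attaches single ADP-ribose units, had 37, 54 and 15 counts in WT and 552, 600 and 387 in KO, and rose by 3.84 ± 0.12 on the log2 scale (edgeR adjusted p = 8.84e-24). PARP10, another transferase of single units, had 139, 139 and 63 counts in WT and 1062, 1274 and 777 in KO, and rose by 3.16 ± 0.084 (edgeR adjusted p = 1.35e-25). Both confidence intervals lie above those of the 9 genes given before. Smaller rises were found for PARP11 (log2 fold change 0.31 ± 0.083), TIPARP (0.30 ± 0.078), which is known as a target of the aryl hydrocarbon receptor, and PARP6 (0.26 ± 0.064). PARP12 and PARP15 had at most 1 count in each library. Per kb of exonic bases, PARP10 came from 0.850 ± 0.086 CPM in WT to 7.41 ± 0.37 in KO, near the level of TNKS, and PARP8 from 0.149 ± 0.026 to 2.19 ± 0.037 (SD, n = 3 each).

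**Figure D5:**
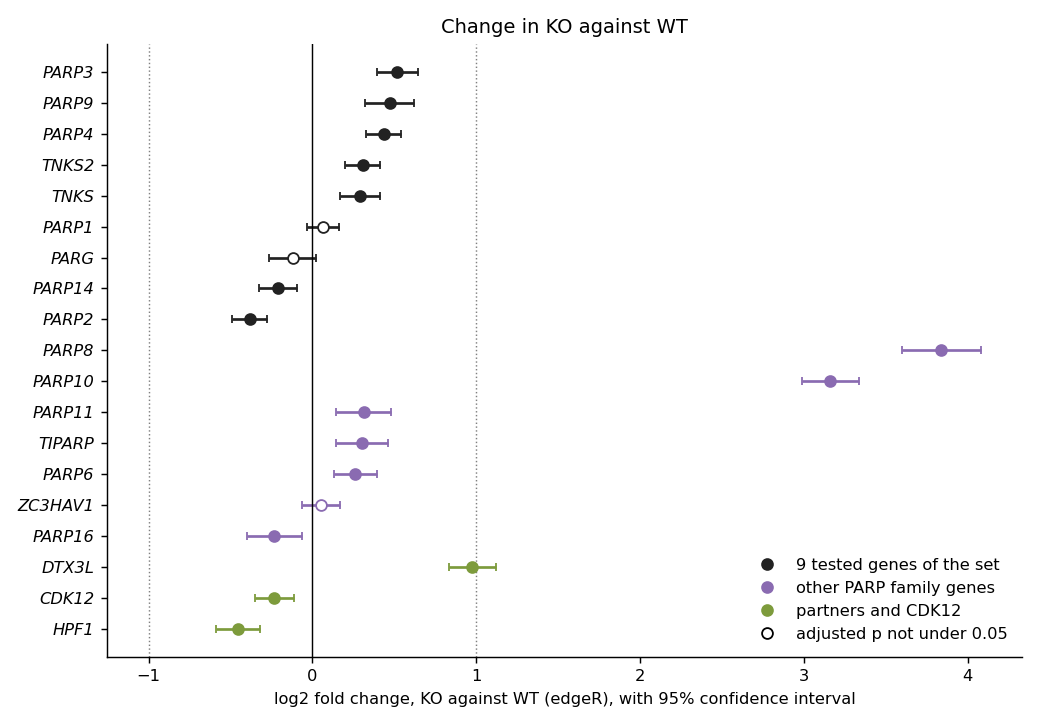
Log2 fold change in KO against WT with the 95% confidence interval (edgeR, n = 3 each) of the 9 tested genes (black), 7 other PARP family genes (purple) and DTX3L, CDK12 and HPF1 (green), with open points where the adjusted p was not under 0.05 and dotted lines at -1 and 1. The black points lie between -0.38 and 0.52, and PARP8 and PARP10 lie at 3.84 and 3.16.

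Of 15 genes that assist, read or remove ADP-ribose, 13 were tested, 3 were higher and 6 were lower, and the median log2 fold change was -0.20. The shares over all genes tested were 31.9% higher and 32.0% lower. Of the 6 lower calls, that of ADPRS was lost in 6 alternatives, DESeq2 among them (adjusted p = 0.0719), that of OARD1 without KO replicate 1 (edgeR adjusted p = 0.059) and that of APLF without KO replicate 2 (edgeR adjusted p = 0.0598). DTX3L rose, as given above. NUDT16 and NUDT5 hydrolyse ADP-ribose and related compounds, and they moved apart: NUDT16 rose (log2 fold change 0.53 ± 0.052, edgeR adjusted p = 2.05e-10) and NUDT5 fell (-0.43 ± 0.047, edgeR adjusted p = 1.99e-09). HPF1, which completes the active site of PARP1 and PARP2 and was singled out after its values were seen, had 994, 998 and 386 counts in WT and 664, 653 and 443 in KO. Its log2 fold change was -0.45 ± 0.066 (edgeR adjusted p = 4.08e-07), beside -0.38 for PARP2 and 0.06 for PARP1.

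Of 6 genes described here from single-strand break repair, the pathway in which PARP1 and PARP2 act, 3 were lower, with a median log2 fold change of -0.13. Of all genes tested, 32.0% were lower. XRCC1 (log2 fold change 0.06 ± 0.060), APTX (-0.06 ± 0.058) and FEN1 (-0.08 ± 0.055) did not pass the test. LIG3, the ligase of this pathway, fell (log2 fold change -0.51 ± 0.058, edgeR adjusted p = 2.73e-09), as did TDP1, which frees trapped topoisomerase I from DNA (-0.31 ± 0.076, edgeR adjusted p = 0.0006). POLB, the polymerase that fills short gaps, had a log2 fold change of -0.18 ± 0.068 (edgeR adjusted p = 0.0245), and this call was lost in DESeq2 (adjusted p = 0.0653), under upper-quartile scaling (edgeR adjusted p = 0.0621), with library totals only (0.104), with no filter beyond 1 count in total (0.0618) and without WT replicate 1, KO replicate 2 or KO replicate 3 (0.0532 to 0.067).

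NAD is the substrate of all PARPs, and of 10 genes for its supply 8 were tested, 3 were higher and 2 were lower, with a median log2 fold change of 0.06. Among all genes tested the shares were 31.9% higher and 32.0% lower. With at least 10 counts required in every library QPRT fell out, 7 genes were tested and their median was 0.17. QPRT, which feeds the synthesis of NAD from tryptophan, had 702, 701 and 251 counts in WT and 8, 3 and 3 in KO. QPRT passed the filter only through its WT counts. Its summed level was 115-fold lower in KO, with an exact 95% interval for counting error alone from 68.6 to 212, and the edgeR adjusted p was 6.98e-26. NMNAT2, an enzyme of the final step of NAD synthesis, had 411, 460 and 172 counts in WT and 866, 869 and 686 in KO, and rose by 1.21 ± 0.073 on the log2 scale (edgeR adjusted p = 1.18e-15). NAMPT, the rate-limiting enzyme of the salvage route, fell (log2 fold change -0.33 ± 0.053, edgeR adjusted p = 2.06e-06), and NADSYN1 (0.18 ± 0.062) and NMRK1 (0.20 ± 0.073) rose. The calls of the last 2 were lost without WT replicate 3 (edgeR adjusted p = 0.0616 and 0.0926) and without KO replicate 2 (0.0771 and 0.0515), and that of NMRK1 also without WT replicate 2 (0.0621).

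Of 10 genes described here whose proteins are known substrates of the tankyrases, 1 was higher and 5 were lower, with a median log2 fold change of -0.10, where 32.0% of all genes tested were lower. AMOTL1, 1 of the 5, had an edgeR adjusted p of 0.0477 and lost its call in 11 of 13 alternatives, voom/limma (adjusted p = 0.0561) and DESeq2 (adjusted p = 0.0977) among them, so that each of these tools called 4 lower. AMOTL2, an angiomotin of the Hippo pathway, had 2025, 2475 and 851 counts in WT and 139, 200 and 115 in KO (log2 fold change -3.57 ± 0.080, edgeR adjusted p = 9.49e-28). AXIN2, a scaffold of the complex that degrades beta-catenin and itself a Wnt target, had 145, 184 and 75 counts in WT and 49, 64 and 51 in KO (-1.32 ± 0.15, edgeR adjusted p = 3.88e-09). NUMA1 rose (log2 fold change 0.33 ± 0.047), and SH3BP2 (-0.20 ± 0.053) and CASC3 (-0.12 ± 0.048) fell. CASC3 lost its call under upper-quartile scaling (edgeR adjusted p = 0.0976), under library totals (0.193), under both other filters and without WT replicate 2 or 3 or KO replicate 1 or 2 (0.0695 to 0.112).

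Of 11 genes of interferon signalling, to which PARP9, DTX3L and PARP14 are known to respond, 4 were higher and 6 were lower, with a median log2 fold change of -0.36. IFIT1, an RNA-binding antiviral protein, had 1535, 1322 and 509 counts in WT and 259, 289 and 200 in KO (log2 fold change -2.18 ± 0.083, edgeR adjusted p = 3.53e-21), and IFIT2 fell by 1.6 ± 0.090 (edgeR adjusted p = 1.49e-16). OAS1, which senses double-stranded RNA, had 15, 16 and 10 counts in WT and 167, 164 and 110 in KO (3.39 ± 0.19, edgeR adjusted p = 1.5e-16), and MX1 rose by 1.03 ± 0.15 (edgeR adjusted p = 6.34e-07). ISG15 (-0.64 ± 0.078) and IFIT3 (-0.59 ± 0.092) fell and IRF1 (0.48 ± 0.089) rose. IFIT1, IFIT2 and IFIT3 lie near each other on chromosome 10 (89283694 to 89406487), so the lower calls come from fewer places than genes. The median holds for these 11 genes only and not for interferon-responsive genes in general. Of the other lower calls, that of IRF9 was lost in DESeq2 (adjusted p = 0.0619) and without KO replicate 1 (edgeR adjusted p = 0.0864), and that of IFI6 without WT replicate 1 (edgeR adjusted p = 0.0822). Over all genes tested, 31.9% were higher and 32.0% were lower.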

How the data were processed

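Libraries were grouped by the genotype in the labels, which pair no WT library with a KO library and give no batch. Deposited were raw counts, whole numbers for 60483 Ensembl genes, which the authors made per the labels and the methods with FastQC, STAR on GRCh38 and HTSeq from stranded single-end reads. Tool versions, annotation release, strand setting and the handling of multi-mapping reads are not given in the sources used here. The counts carry no normalization and no molecular identifiers.

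Symbols, coordinates and lengths came from GENCODE release 44, in which 93.1% of the identifiers were found. Genes were kept with filterByExpr (minimum count 10, minimum total 15), scaled with TMM and compared with the quasi-likelihood test of edgeR 4.0.16 in R 4.3.3, two-sided, with Benjamini-Hochberg adjustment over 16198 genes. Standard errors are the log2 fold change over the root of F. The threshold was an adjusted p of 0.05, with or without an absolute log2 fold change above 1, as in the methods of the study. Alternatives were voom/limma 3.58.1, the tool of the study, DESeq2 1.42.0, 3 other scalings, 2 other filters, an adjusted p of 0.01, a test against the fold threshold and the omission of each library. At the lowest depth, 3 counts equal 0.270 CPM. Replicates differed beyond counting noise (chi-square per degree of freedom 1.73 to 7.23). Python 3.11.15 with scipy 1.17.1 was used for the ratios and exact tests, and promoter windows are those of RefSeq.

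The genes followed and all gene lists were chosen with earlier results of these data known. Named from each list were the genes past both thresholds and up to 3 further ones of lowest adjusted p, with the nearest tested neighbours and the pseudogenes of the genes followed. Further coding genes around PARP9 and PARP14 and all 6 genes described from single-strand break repair are named as well. PARP4P1 and PARP4P3 are not described, and further genes of the lists of single-strand break repair and tankyrase substrates are not reported here, nor counted with them.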

Additional observations from a re-analysis of the deposited data

How the results depend on the processing

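All 9 tested genes kept their direction under the 13 alternatives tried for each (other tools, scalings and filters and the omission of each library), and 7 of them also kept their side of the threshold in all 13. The exceptions were PARP1, which passed with library totals only (log2 fold change 0.11, edgeR adjusted p = 0.0399), and PARG, which passed without WT replicate 3 (-0.18, edgeR adjusted p = 0.0406). Over the omissions of single libraries, the log2 fold change of PARP1 lay between 0.028 and 0.10 and that of PARG between -0.18 and -0.057. The log2 difference of the TNKS2 to TNKS ratio, 0.014, turned to -0.0074 without WT replicate 1, to -0.015 without KO replicate 1 and to -0.034 without KO replicate 2, and lay between -0.034 and 0.091 over all such omissions. The number of genes of the fixed lists past the threshold ranged from 15 to 17 higher and from 21 to 27 lower, against 17 and 26. The scalings moved the median of all genes by at most 0.05 on the log2 scale. No paired analysis was possible because no label ties a WT library to a KO library. Levels per length depended on the length used: 32 of the values with another length differed from those with all exonic bases by more than the SD between libraries. In WT replicate 3, the smallest library, 3 counts equal 0.270 CPM, which limits what can be said of SLFN11, PARP12 and PARP15.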

Other observations

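PARP inhibitor response is known to be modified by the 53BP1 and shieldin proteins, which limit the resection of DNA ends, and by drug efflux pumps. Of 9 such genes 8 were tested, none was higher and 3 were lower in KO by edgeR, with a median log2 fold change of -0.19. The shares of all genes tested were 31.9% higher and 32.0% lower. The same counts of 0 higher and 3 lower were found in voom/limma and DESeq2, and in all 3 tools at an unadjusted p under 0.05. ABCG2, 1 of the 3, passed the filter only through its WT counts. With at least 10 counts required in every library, 7 genes were tested and their median was -0.06. ABCG2, an efflux pump, had 30, 30 and 8 counts in WT and 2, 0 and 0 in KO, and its summed level was 33.2-fold lower, with an exact 95% interval for counting error alone from 8.85 to 280. ABCB1, the pump that exports olaparib among other drugs, had 9, 26 and 8 counts in WT and 2, 5 and 0 in KO, too few for the test. Its summed level was 6.01-fold lower, with an interval from 2.68 to 15.8. DYNLL1, a dynein light chain that assists 53BP1, fell by 0.34 ± 0.049 on the log2 scale (edgeR adjusted p = 2.86e-07), and SHLD2, a shieldin subunit, fell by 0.30 ± 0.056 (edgeR adjusted p = 1.83e-05). SHLD1 had a log2 fold change of -0.46 ± 0.23 (edgeR adjusted p = 0.0852).

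The genes whose log2 CPM over the 6 libraries was most like that of PARP1 were RRBP1 (Pearson r = 0.9784), HIRIP3 (0.9757) and the unnamed gene ENSG00000267666 (0.9736). For PARP3 they were IKBKG (0.9985), HERPUD2-AS1 (0.9974) and FAAP100 (0.9973), which rose in KO with PARP3 by 0.58, 0.45 and 0.42 on the log2 scale. These are the highest of 16198 genes over 6 points that share libraries and fall into 2 groups, and they are given as a description only.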
